A study of Drosophila melanogaster with 3 samples.

Results

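The regions described here are the peaks of CG15011 that lay upstream of a gene in the space between 2 head-to-head genes, 197 of the 3237 peaks in the authors' optimal set. A peak was a member if its summit lay more than 100 and at most 500 bp upstream of the nearest transcription start site (TSS) of a protein-coding gene, and if it also lay between that TSS and one of another protein-coding gene on the opposite strand, transcribed away from it, with at most 1000 bp between the TSSs. The measured signal played no part in that choice beyond the authors' selection of the optimal set. Of the 836 optimal peaks in that range upstream of a TSS, members made up 23.6% (exact binomial 95% interval 20.7 to 26.6), and the other 639, called the other upstream peaks, had no such pair. Such intervals are Clopper-Pearson intervals throughout, cover the counting of peaks, genes or gaps only, and treat neighbouring sites as independent.

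The data are 3 biological replicates of chromatin immunoprecipitation followed by sequencing in whole Drosophila melanogaster embryos, aged 0 to 24 hours with both sexes pooled, and they form 1 group. The flies stably carried a transgene for CG15011 fused at its C-terminus to green fluorescent protein, CG15011 is the labelled antibody target, and no embryo without the transgene is among the samples. Whole embryos mix all cell types and stages of that day, so a peak in few cells and a weak peak in many cannot be told apart. All 3 samples are described in a text label as input control, but the deposited notes derive each peak list from the replicate's reads set against those of another, separate control, and the libraries were therefore read as immunoprecipitated. Each replicate list and the list of the pooled replicates hold 30000 peaks, and the optimal set is the strongest 3237 of the pooled list. Read depth is unknown, because the lists hold no read counts. The signal is the authors' value per peak and ranks peaks only within its own list.

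Divergent, or head-to-head, gene pairs are common in the compact fly genome, where the short stretch between the TSSs serves as the upstream region of both genes. Housekeeping genes are frequent among them, and their promoters often carry the DNA replication-related element (DRE), bound by Dref, or the core promoter sequences known as Motif 1, bound by M1BP, and Motif 7. BEAF-32, an insulator protein, is known to bind between close head-to-head genes at clusters of a short half-site that is also contained in the DRE. CG15011 itself is an uncharacterised protein in the RefSeq annotation.

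The DNA under the summits gives the first view of these regions. Each line is 201 bases of the plus strand of dm6 (RefSeq, Release 6) with the summit at the central base, and none of the windows overlaps an annotated exon. Capitals mark the matches to 3 of the motifs searched, TGACGTCA (the cyclic AMP response element or CRE), TATCGATA (the DRE) and CANCCCTA (Motif 7). The first 3 windows are the only members with a CRE, the motif whose share in members was highest relative to divergent gaps without an optimal peak.
Fur1 and Vps33B (chr3R:25473167-25473367): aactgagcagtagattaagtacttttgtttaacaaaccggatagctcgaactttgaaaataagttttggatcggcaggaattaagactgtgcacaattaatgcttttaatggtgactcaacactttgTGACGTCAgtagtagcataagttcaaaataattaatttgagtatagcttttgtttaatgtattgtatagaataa
ebi and AP-2alpha (chr2L:414843-415043): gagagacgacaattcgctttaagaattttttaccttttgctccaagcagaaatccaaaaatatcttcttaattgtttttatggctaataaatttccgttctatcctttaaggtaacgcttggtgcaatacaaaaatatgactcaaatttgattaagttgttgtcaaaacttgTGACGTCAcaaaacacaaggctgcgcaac
Idua and Gr32a (chr2L:11113116-11113316): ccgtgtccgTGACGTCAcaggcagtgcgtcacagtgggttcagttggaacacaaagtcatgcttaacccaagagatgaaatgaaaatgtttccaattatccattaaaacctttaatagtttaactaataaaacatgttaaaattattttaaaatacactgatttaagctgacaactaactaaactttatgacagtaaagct
The next window belongs to CenG1A and mRpS23, the strongest member with no match to any of the 18 motifs searched.
CenG1A and mRpS23 (chr2L:13835349-13835549): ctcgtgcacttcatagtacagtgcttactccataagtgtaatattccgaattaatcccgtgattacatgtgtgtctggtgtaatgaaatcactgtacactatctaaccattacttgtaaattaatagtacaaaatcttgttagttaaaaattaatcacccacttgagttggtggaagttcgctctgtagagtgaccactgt
The last 4 windows, chosen after the values were seen, show members with a DRE (the first 3) and with Motif 7 (the first, the second and the last). The partner of CG7369 is given by its gene identifier.
Atat and Shc (chr3L:9426780-9426980): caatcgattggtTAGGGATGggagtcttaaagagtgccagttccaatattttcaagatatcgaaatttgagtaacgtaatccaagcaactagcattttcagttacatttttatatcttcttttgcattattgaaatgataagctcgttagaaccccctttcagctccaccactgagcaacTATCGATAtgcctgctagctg
CG7369 and FBgn0010830 (chr3L:22741539-22741739): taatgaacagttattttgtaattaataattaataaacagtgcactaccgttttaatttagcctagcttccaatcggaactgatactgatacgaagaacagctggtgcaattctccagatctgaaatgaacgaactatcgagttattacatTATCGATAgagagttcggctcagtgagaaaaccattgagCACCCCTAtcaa
MED17 and CG12321 (chr3R:18188858-18189058): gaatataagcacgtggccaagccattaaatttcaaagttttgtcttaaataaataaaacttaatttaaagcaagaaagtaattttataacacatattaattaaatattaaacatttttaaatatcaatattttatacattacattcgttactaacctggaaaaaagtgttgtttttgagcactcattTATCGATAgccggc
Phf5a and CG31638 (chr2L:6490848-6491048): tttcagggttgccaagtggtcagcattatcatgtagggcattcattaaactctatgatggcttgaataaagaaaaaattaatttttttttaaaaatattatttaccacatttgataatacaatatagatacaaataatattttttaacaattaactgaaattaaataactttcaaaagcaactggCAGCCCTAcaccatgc
The capitals sit towards the ends of most of these windows rather than at the centre, where the summit is. The stretches around the summit are rich in A and T, and over all members 28.5% of the bases within 25 bp of the summit were G or C.

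The pooled signal of the members had a median of 281.0, with a lowest value of 161.1 and a highest of 2224, against a median of 302.7 (158.0 to 2082) in the other upstream peaks and 247.5 in all optimal peaks. Of the 197 members, 116 (58.9%, 51.7 to 65.8) stood above the median of the optimal set, and 11 were among its 100 strongest peaks. In replicates 1, 2 and 3 the median signal was 83.9, 144.1 and 66.0 in members, against 86.1, 144.4 and 87.4 in the other upstream peaks. Medians by replicate, of signal and of rank, cover only the peaks found in that list. These were 196, 189 and 189 members and 631, 627 and 629 other upstream peaks. Members minus other upstream peaks gave -2.18, -0.300 and -21.5 signal units, lower in all 3 replicates, and the exact sign permutation test over the 3 replicates gave p = 0.25, the smallest that 3 replicates allow. That test averages signals of lists whose scales may differ, and replicate 3 contributed most of the average. By rank within each list, which needs no scale, the median was 1256, 1149 and 1902 in members, against 1206, 1142 and 1142 in the other upstream peaks.

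Each of the 3 strongest members flanked a gene for a mitochondrial ribosomal protein, while the other 4 members at such genes had pooled signals of 175.0 to 334.5. The first was between mRpL41, a protein of the large mitochondrial ribosomal subunit, and the uncharacterised CG8079, with its summit at position 15217762 of chromosome 2R, 145 bp upstream of mRpL41 and 617 bp from the other TSS. Its signals in replicates 1, 2 and 3 were 713.8, 1152 and 373.7, which ranked it 6, 7 and 35 in the 3 lists. The second lay between Art3, an arginine methyltransferase, and mRpS10, of the small mitochondrial subunit, in a gap of 257 bp on chromosome 3R. Its summit at 15229534 was 126 bp from one TSS and 131 bp from the other, so it sat almost at the midpoint, and it ranked 9, 8 and 20. The third, between CenG1A, an Arf GTPase-activating protein, and mRpS23, was shown above as the window with no motif match. It had signals of 478.3, 782.1 and 468.9 and ranked 19, 22 and 13 in replicates 1, 2 and 3, so it was high in each replicate.

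The next members by signal lay at pairs of varied function. Pdrg1, a prefoldin-like subunit, and Pal1, a peptide-amidating lyase, flanked a peak of pooled signal 1524. Mtl, a Rac-family GTPase, and CG5611 flanked one of 1505, and eIF4EHP, a cap-binding repressor of translation, and CG18428 one of 1450. Pax, the focal adhesion protein paxillin, paired with the alkaline phosphatase Alp12 (1242), and PIG-F, of glycolipid anchor synthesis, with the mitochondrial protease Lon (1200). Below them in order came CG3437 and CG3552, SLIRP2 and the MAP kinase kinase Mkk4, the mechanosensitive channel Piezo and Acbp1, CG7841 and the mitotic inhibitor Z600, the insulator protein Cp190 and CG4338, CG5098 and CG5757, and Arl1 with brm, the ATPase of the Brahma chromatin remodeller. Also among the 20 strongest were bves and Stt3A, the tubulin acetylase Atat and Shc, Ank2 and Mcad, and POSH and Ns2, the last at 858.9. All 20 were among the strongest 3237 of all 3 replicates. That is in part built in, because the optimal set was chosen by reproducibility between these replicates. Their gaps ran from 243 to 955 bp, with a median of 349 bp.

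The replicates backed the members unevenly. A replicate was taken to back a member if one of the strongest 3237 peaks in its list covered the summit. The optimal set was chosen by reproducibility between these replicates, so backing is in part built in for every set of optimal peaks. In replicates 1 and 2 this held for 179 (90.9%, 85.9 to 94.5) and 178 (90.4%, 85.3 to 94.1) of the 197 members, against 85.1% and 90.6% of the other upstream peaks. In replicate 3 it held for 132 members (67.0%, 60.0 to 73.5), against 557 of the other upstream peaks (87.2%, 84.3 to 89.7). Over the 3 replicates the share was 82.7% ± 13.6 in members and 87.6% ± 2.77 in the other upstream peaks (SD, n = 3). In all optimal peaks it was 80.7%, 87.5% and 79.3% in replicates 1, 2 and 3, or 82.5% ± 4.39. The difference of members minus other upstream peaks was 5.73, -0.255 and -20.2 percentage points, and the exact sign permutation test gave p = 0.75, so the difference did not hold across replicates. Optimal peaks within 100 bp upstream of a TSS were backed in replicate 3 about as often as members. The share was 70.3% in divergent gaps and 68.8% elsewhere, so the lower share was not confined to members.

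**Figure D1:**
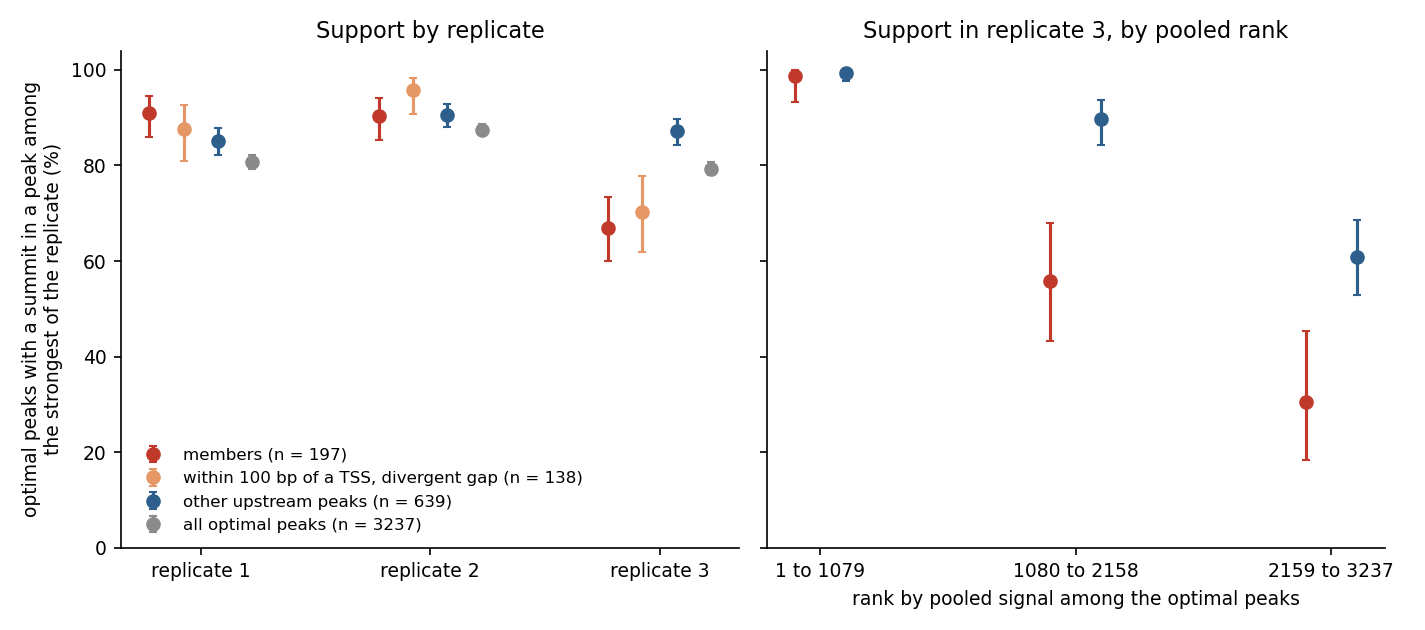
Left, share of optimal peaks backed by each replicate, that is, with the summit inside one of its 3237 strongest peaks (y axis, percent) for 4 sets of peaks. Right, the same share in replicate 3 for members (red) and other upstream peaks (blue) by pooled rank; points are shares and bars exact binomial 95% intervals. Members stand at 90.9% and 90.4% in replicates 1 and 2 and at 67.0% in replicate 3, and the gap to the other upstream peaks opens below pooled rank 1079.

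By the cutoff at the strongest 3237 peaks, the shortfall in replicate 3 lay among the weaker members. At optimal ranks 1 to 1079, 79 of 80 members (98.8%) and 297 of 299 other upstream peaks (99.3%) were among the strongest of replicate 3. Nearly every peak of these ranks passes the cutoff, so it cannot show whether stronger members also stood lower. At ranks 1080 to 2158 the shares were 55.9% (43.3 to 67.9) of members and 89.7% (84.3 to 93.7) of other upstream peaks, and at ranks 2159 to 3237 they were 30.6% (18.3 to 45.4) and 60.9% (52.8 to 68.6). By distance from the TSS, replicate 3 backed 78.0% of members (68.6 to 85.7) against 84.9% of other upstream peaks (75.5 to 91.7) up to 150 bp. The shares were 51.9% (37.8 to 65.7) against 84.9% (77.5 to 90.7) from there to 200 bp and 60.7% (40.6 to 78.5) against 86.7% (81.1 to 91.1) to 300 bp. To 500 bp they were 9 of 15 members (60.0%, 32.3 to 83.7) against 89.7% (85.0 to 93.3). Members were lower in each class, but the intervals overlap in the first, which holds 100 members. Of the peaks among the strongest of both replicates 1 and 2, replicate 3 lacked 49 of 163 members (30.1%, 23.1 to 37.7) and 47 of 498 other upstream peaks (9.44%, 7.02 to 12.4). At any rank in its 30000 peaks, however, replicate 3 held 189 of the 197 members. Among peaks found at any rank in all 3 replicates, 132 of 180 members (73.3%, 66.2 to 79.6) had their weakest rank in replicate 3. The share was 30.4% (26.8 to 34.3) in other upstream peaks and 37.6% in all optimal peaks. It was 72.1% (63.3 to 79.9) in optimal peaks within 100 bp of a TSS in divergent gaps. Whether library quality or depth had a part in replicate 3 was not tested, since the lists hold neither.

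All 3 replicates backed 114 members (57.9%, 50.6 to 64.9), against 451 other upstream peaks (70.6%, 66.9 to 74.1). Of all optimal peaks they backed 60.4% (58.7 to 62.1), which is near the share of members. Of the members, 65 were backed by exactly 2 replicates, 17 by 1 and 1 by none. With replicate 1, 2 or 3 left out, 123, 121 and 163 members were backed by both of the others. That 1 was the weakest of all members, between CG9636 and CG18749, with ranks of 4141, 3485 and 3350, all just beyond the limit. Replicates 1, 2 and 3 held 196, 189 and 189 of the 197 members at any rank. Members missing from a list have no rank in it and were left out of the next comparison. Among the 180 members found in all 3 replicates, the 5 whose ranks differed most all stood lowest in replicate 3. The member between bigmax, a partner of Mondo in sugar sensing, and Hmu ranked 22203, 1286 and 29323 in replicates 1, 2 and 3. Between ND-SGDH, a subunit of respiratory complex I, and RhoGAP68F the ranks were 2178, 1397 and 23939, and between dUTPase, which clears dUTP from the nucleotide pool, and Art8 they were 2479, 2830 and 23274. Ire1, the sensor of the unfolded protein response, with Mrm2 (2164, 1465 and 22249) and CG8814 with Ifrd1 (1109, 1317 and 19302) were likewise lowest in replicate 3.

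The same rule applied to each replicate's own strongest 3237 peaks found 253, 221 and 127 members (200 ± 65.5, SD, n = 3), or 7.82%, 6.83% and 3.92% of the peaks. Replicate 3 again stood lowest. The place of the summits differed less, with a median of 39.9%, 38.5% and 37.8% of the gap from the nearer TSS.

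How close members sat to the middle of a gap depended on its width, in part through the rule itself. A summit can be no farther from the nearer TSS than the midpoint, and the rule keeps it more than 100 bp away. In gaps of up to 300 bp all 40 members were therefore bound to lie within 50 bp of the midpoint. In wider gaps the room between these limits grows with the gap, so a falling share near the midpoint was also in part built in. Placement by chance was not modelled. The median distance to the nearer TSS was 148 bp over all 197 members, from 102 to 458 bp, in gaps with a median of 422 bp. It was 116 bp in gaps of up to 300 bp (40 members), 144 bp in gaps of over 300 to 400 bp (47), 180 bp in gaps of over 400 to 600 bp (59) and 196 bp in gaps of over 600 bp (51). Within 50 bp of the midpoint lay 74.5%, 40.7% and 15.7% of the members in the last 3 of these classes. The median place was thus 39.9%, 37.3% and 28.1% of the gap from the nearer TSS. For 162 members (82.2%, 76.2 to 87.3) the farther TSS was within 500 bp too.

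**Figure D2:**
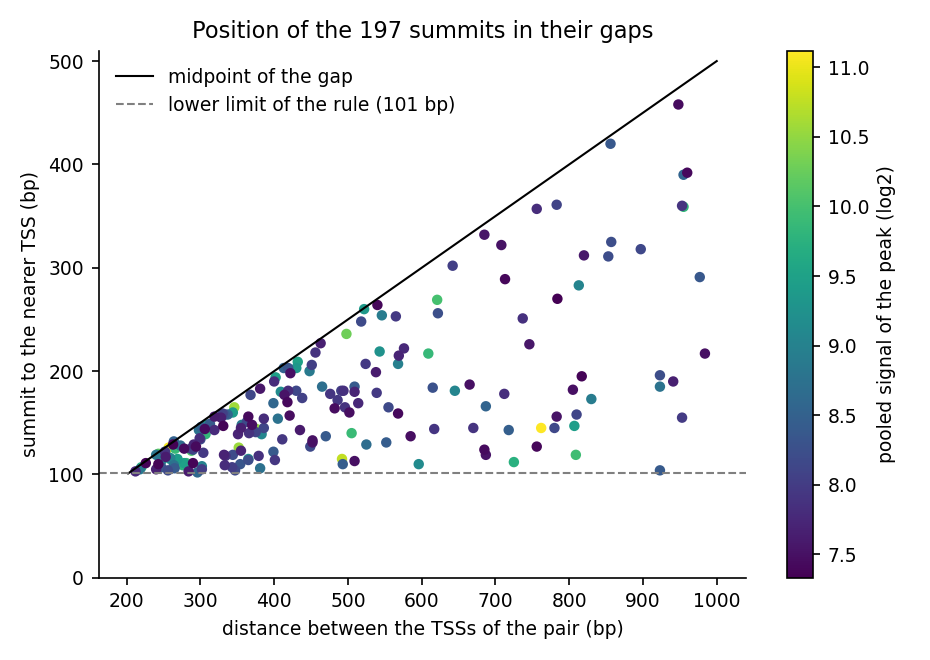
Distance from each of the 197 summits to the nearer TSS (y axis, bp) against the distance between the TSSs of the pair (x axis, bp), coloured by log2 pooled signal. The solid line is the midpoint, the highest possible place, and the dashed line the lower limit of the rule. The room between the lines grows with the gap. Summits crowd near the midpoint in gaps of up to 300 bp and spread below it in wider gaps, where the median distance reached 196 bp.

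The summits typically varied between replicates by less than the distance to the nearer TSS, but not by little beside the distance to the midpoint. For the 180 members found at any rank in all 3 replicates, the SD of the 3 replicate summits had a median of 25.8 bp (quartiles 14.4 and 44.1). The median distance of the member summits from the midpoint was 46.0 bp. The replicate's own summit lay between the TSSs of the pair in 195 of 196, 188 of 189 and 188 of 189 members found in replicates 1, 2 and 3. These counts are in part built in, because a replicate peak had to cover the member's summit. Sonication to between 200 and 800 bp, and a common peak width of 444 bp in the optimal set, limit how finely a summit can be placed.

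The limits of the rule cut through a continuous range of places. Just inside the lower limit were the members between gb and CG5815 at 102 bp and between cm and sloth1 at 103 bp, with signals of 392.6 and 218.4, and just outside it were peaks between Xe7 and Atg17 and between slv and sut1 at 100 bp, with signals of 396.8 and 282.5. Nearest to the far limit of 500 bp were the members between CG13038 and CG13058 at 458 bp (173.9) and between CG42784 and CG16956 at 420 bp (327.7). The widest gaps were those of Ance and Smg5, 984 bp (179.4), and of Pax and Lectin-galC1, 977 bp (329.5), and just beyond the limit of 1000 bp lay 2 peaks between Eno and Rrp40, 1015 bp apart, with signals of 779.1 and 249.6.

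The 197 members fell in 190 distinct pairs of 379 genes, because 7 pairs held 2 members each. The genes of a pair share 1 peak, so they are not separate observations. The strongest of the double pairs was Ank2, which encodes an ankyrin, and Mcad, an acyl-CoA dehydrogenase, with summits of signal 903.2 and 371.4 in a gap of 955 bp. The others were Snx21 and aph-1, a subunit of gamma-secretase (502.2 and 170.2), CG8229 and Tom7, of the mitochondrial outer membrane translocase (337.4 and 180.1), CG33229 and the channel pyx (272.1 and 184.2), Idua and the gustatory receptor Gr32a (254.2 and 239.3), Ac78C and chb, and slv and sut1. Both summits of the Idua and Gr32a gap lay in 1 and the same peak of each replicate, with ranks of 2324, 1670 and 1620, and so did those of Snx21 and aph-1, with ranks of 604, 330 and 1262, so the replicates did not separate them. The summits of CG33229 and pyx shared their peak in replicates 1 and 2, and those of CG8229 and Tom7 and of slv and sut1 shared it in replicate 3.

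Members were spread over the arms, with 40 on 2L, 40 on 2R, 53 on 3L, 46 on 3R, 18 on X and 0 of 10 optimal peaks on chromosome 4 (upper limit 30.8%). Of the divergent gaps on X, 16 of 281 (5.69%, 3.29 to 9.08) held a member, against 11.5% on 2L, 35 of 350 on 2R, 12.4% on 3L and 10.5% on 3R. Any optimal summit was found in 9.25% (6.13 to 13.3) of gaps on X, against 12.6% to 17.8% on these arms. The interval of 3L alone lay wholly above that of X for members, and those of 3L and 3R for any optimal summit. In the annotation 152 of the summits lay outside any gene, 34 inside a gene but in no exon and 11 in an exon. In 3 gaps a non-coding gene also started.

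Most divergent gaps held no member. The genome has 1749 gaps between the TSSs of divergent protein-coding genes that are up to 1000 bp wide, wide enough to hold a member and free of any other coding TSS. Of these, 178 (10.2%, 8.80 to 11.7) held a member, 262 (15.0%) any optimal summit and 569 (32.5%, 30.3 to 34.8) a summit of the pooled list. These gaps held 185 of the 197 members. The share with a member was 7.54% (5.42 to 10.2) in gaps of up to 300 bp, where little room lies outside 100 bp of either TSS, then 12.4% up to 400 bp, 12.9% up to 500 bp, 9.60% up to 600 bp, 8.59% up to 800 bp and 12.7% up to 1000 bp. The share with any optimal summit was 16.6% (13.5 to 20.1) in the narrowest of these classes and 14.6% (9.52 to 21.2) in the widest, and neither share moved steadily with width. Replicates 1, 2 and 3 by their own strongest peaks gave 13.0%, 11.4% and 6.40% of gaps with a member (10.3% ± 3.44, SD, n = 3), so the replicates ranged over as much as the width classes did.

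**Figure D3:**
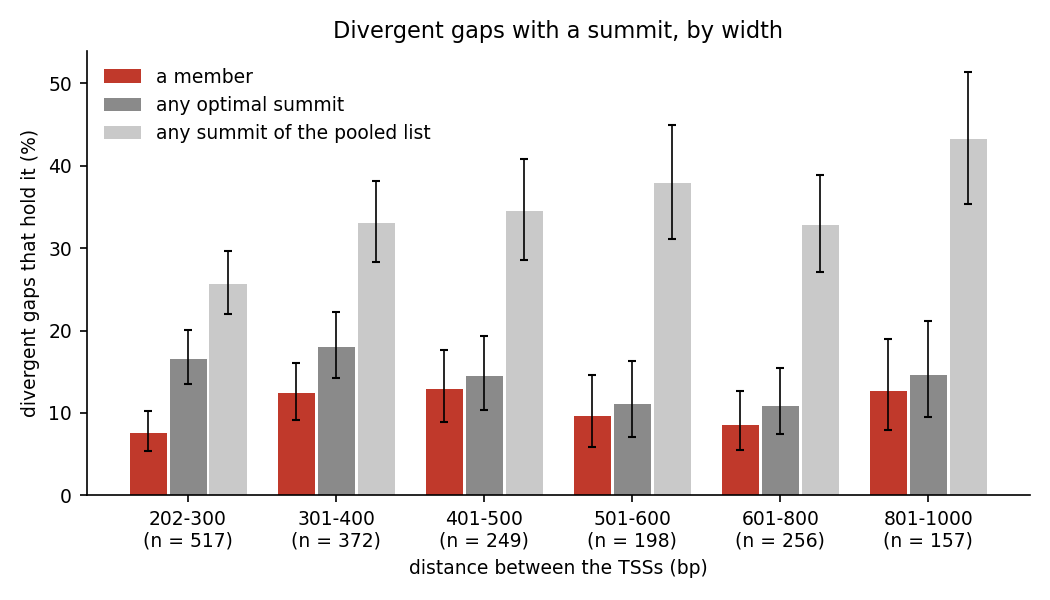
Share of divergent gaps (y axis, percent) that held a member, any optimal summit or any summit of the pooled list, by the distance between the TSSs (x axis, bp); bars are shares and whiskers exact binomial 95% intervals. The share with a member stays between 7.54% and 12.9% in all 6 width classes.

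Divergent gaps weigh on where the optimal peaks lie relative to genes, since a summit between head-to-head genes is upstream of both wherever it falls. Of 1278 optimal summits no more than 500 bp from a coding TSS, 1067 (83.5%, 81.3 to 85.5) were upstream. Without the 335 in divergent gaps, 732 of 943 (77.6%, 74.8 to 80.2) were upstream.

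The DNA within 100 bp of the summit held 31.2% G and C in members, against 33.6% in the other upstream peaks, 35.1% in all optimal peaks and 31.3% around the midpoints of the 1487 divergent gaps without an optimal summit. Members were poorer in G and C than the other upstream peaks in each replicate's own lists, with differences of -2.66, -2.39 and -2.72 percentage points (exact sign permutation p = 0.25, the smallest possible), and close to the gaps without a peak. The replicate lists share many regions, and the sequence of a region is the same in each. The 3 differences are therefore not independent, and neither are those for motifs below. Over single windows the SD was 5.62 points in members and 6.50 in other upstream peaks, so the sets overlap widely. The part of base composition in the peak signal was not tested.

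The window around the summit was searched for 18 consensus motifs on both strands. A DRE lay in 15 of the 197 member windows (7.61%, 4.32 to 12.2), in 5 of 639 windows of the other upstream peaks (0.782%, 0.255 to 1.82), in 59 of 1487 midpoint windows of the gaps without an optimal summit (3.97%, 3.03 to 5.09) and in 1.82% of all optimal peaks. Its share was highest in optimal peaks within 100 bp of a TSS in divergent gaps (14.5%, 9.08 to 21.5). In each replicate's own lists members exceeded the other upstream peaks by 4.15, 8.35 and 7.10 percentage points (exact sign permutation p = 0.25). Against the gaps without a peak, the intervals of members and gaps overlap. Over whole gaps, 41 of 178 gaps with a member (23.0%, 17.1 to 29.9) and 18.4% (16.5 to 20.5) of gaps without an optimal summit held a DRE, and these intervals overlap as well. The 15 members with a DRE had a median pooled signal of 250.0, against 284.4 in the 182 without.

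The BEAF-32 half-site CGATA, which is part of every DRE match, lay in 65 member windows (33.0%, 26.5 to 40.0), 22.2% of other upstream windows and 31.9% (29.6 to 34.4) of windows in gaps without a peak, so members stood beside the gaps. The share in members was 25.2% among those backed by replicates 2 and 3, 25.6% among those backed by replicates 1 and 3 and 25.9% among the stronger 1618 optimal peaks, and the share in other upstream peaks was not recomputed for those subsets. In the replicates' own lists the excess over other upstream peaks was 11.4, 14.5 and 5.56 percentage points (exact sign permutation p = 0.25). In 50 of the 65 windows no DRE was present. Members with the half-site were backed by replicate 3 in 53.8% of cases, against 67.0% of all members. They were also weaker, with a median pooled signal of 242.7, against 295.2 in members without it. Backing at equal signal was not tested.

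Motif 7 lay in 11 members (5.58%, 2.82 to 9.77), against 2.03% (1.09 to 3.45) of other upstream peaks and 1.41% (0.876 to 2.15) of gaps without a peak. Over whole gaps it lay in 10.7% (6.55 to 16.2) of those with a member and 4.51% (3.51 to 5.69) of those without an optimal summit. In the replicates' own lists the excess over other upstream peaks was 2.61, 2.11 and 0.978 percentage points. The CRE lay in 3 members (1.52%, 0.315 to 4.39), no other upstream peak (0 of 639, upper limit 0.576%) and 0.336% of gaps without a peak, and 3 windows are too few to describe a share well. The GAGA factor motif GAGAGAG went the other way, with 2 members (1.02%, 0.123 to 3.62) against 42 other upstream peaks (6.57%, 4.78 to 8.78), and 1.28% of gaps without a peak. The differences in replicates 1, 2 and 3 were -4.96, -5.00 and -7.37 percentage points. The sequence TATAAA lay in 53.3% (46.1 to 60.4) of members, 41.0% (37.2 to 44.9) of other upstream peaks and 46.1% of gaps without a peak. All 3 replicates showed the same sign in each of these, and p = 0.25 by the exact sign permutation test is the smallest possible. Because the replicate lists share many regions, the same sign in all 3 is in part built in.

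The remaining motifs gave shares in members that lay near those of the gaps without a peak or were rare. Motif 1 (GGTCACAC) lay in 1.52% of members and 1.95% of gaps without a peak, Motif 6 (GTATTTT) in 12.7% and 14.3%, the E-box CAGCTG in 7.11% and 6.46%, the E-box CACGTG in 1.02% and 0.874%, the initiator TCAGTT in 10.7% and 12.6%, the Zelda site CAGGTA in 2.54% and 3.30%, the Pho site GCCATNNT in 4.57% and 7.67%, the ETS site CCGGAA in 2.54% and 3.63%, the GC box GGGCGG in 3.55% and 2.49% and the heat shock element GAANNTTC in 6.60% and 5.78%. The NRF1-type site GCGCATGC and the X-box CCTAGCAAC lay in no member window (upper limit 1.86% each). In 31 members no motif was found, which says only that these letters are not in that window.

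**Figure D4:**
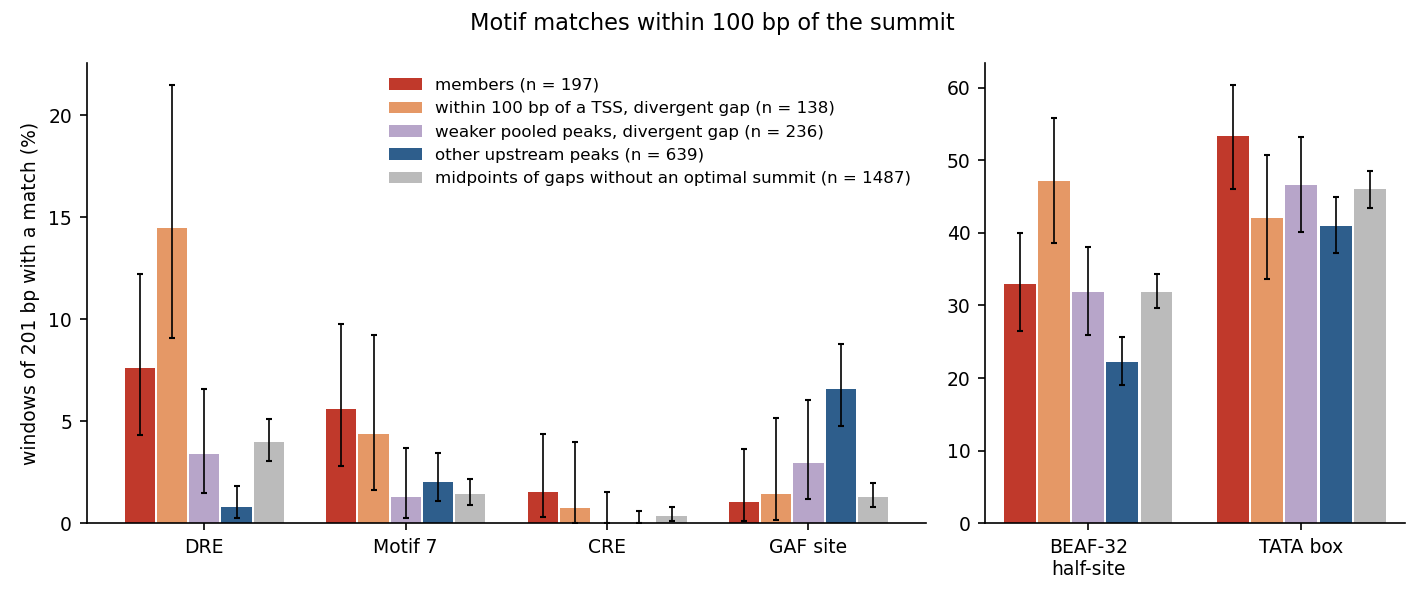
Share of windows within 100 bp of the summit with a match to each of 6 motifs (y axis, percent) in members, the 3 other kinds of peak and the midpoints of divergent gaps without an optimal summit; bars are shares and whiskers exact binomial 95% intervals. The DRE is at 7.61% in members and 0.782% in other upstream peaks, the GAGA factor site at 1.02% and 6.57%. The sets were not matched for distance to a TSS.

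Most DRE and Motif 7 matches lay within 100 bp of a TSS. The 15 DRE matches had a median distance of 56.0 bp from the nearest TSS of the pair and of 73.0 bp from the summit, and 13 of them lay within 100 bp of a TSS but only 4 within 50 bp of the summit. Of the 15, 8 were nearer to a TSS than to the summit. For Motif 7 the medians were 48.0 and 74.0 bp, with 9 of 11 matches within 100 bp of a TSS. The windows shown above for Atat and Shc, CG7369 and FBgn0010830, and MED17 and CG12321 have the DRE 84, 54 and 91 bp from the summit and 46, 100 and 23 bp from the nearest TSS. With windows of 50 bp on each side of the summit in place of 100 bp, the DRE was in only 1.52% of members and Motif 7 in 1.02%.

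**Figure D5:**
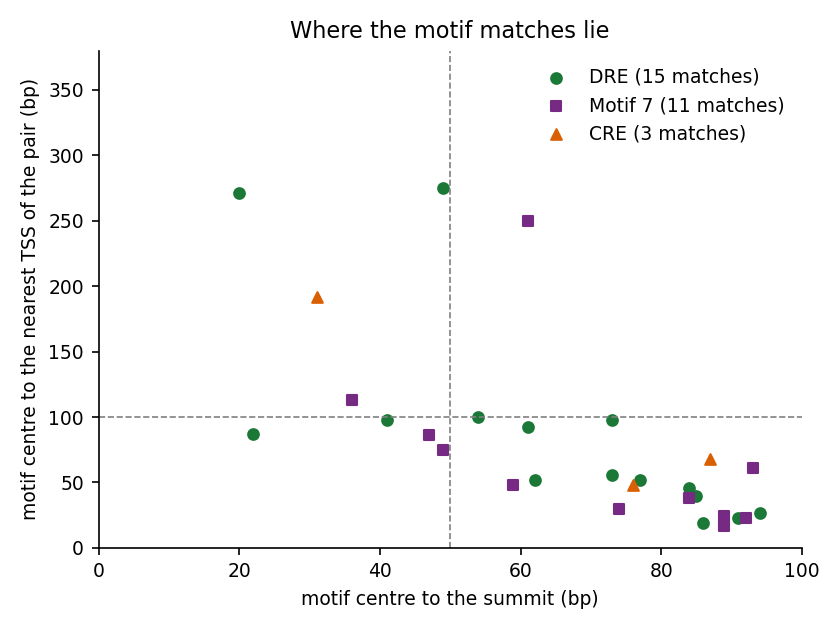
Distance of each motif centre to the nearest TSS of the pair (y axis, bp) against its distance to the summit (x axis, bp) for the DRE, Motif 7 and CRE matches in member windows. Dashed lines mark 100 bp from a TSS and 50 bp from the summit, and 13 of the 15 DRE matches lie at or below the horizontal line.

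The genes of the pairs were compared with 22 lists of genes by function. Of all protein-coding genes, 2.72% had a member in their pair, and of the 3445 genes of those divergent gaps, 10.3% had one, which is the share to read the lists against, since a gene with no divergent partner cannot have a member. Of 443 list genes at such gaps, 51 (11.5%, 8.69 to 14.9) had a member, close to that background. Among the lists, 7 of 36 mitochondrial ribosomal proteins at divergent gaps had one (19.4%, 8.19 to 36.0), and 7 of 41 cytosolic ribosomal proteins (17.1%, 7.15 to 32.1), 5 of 23 spliceosome genes (21.7%, 7.46 to 43.7), 4 of 20 translation factors and 4 of 11 Mediator subunits (36.4%, 10.9 to 69.2). Of these 5 lists, the interval of the Mediator subunits alone lies above 10.3%. With 22 lists and none tested, nothing is read from that.

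Within the lists, signals ranged widely. Besides the 3 strongest members, mitochondrial ribosomal genes had members at mRpL20 with Icmt (334.5), mRpS26 with CG13698 (284.2), mRpS7 with Cdk1, the mitotic kinase (224.6), and mRpS24 with Apc2 (175.0). In replicate 3 the peaks at mRpL20, mRpS26 and mRpS7 ranked 1920, 3807 and 7399, and none was found at mRpS24. Cytosolic ribosomal genes with members included RpL34b (681.8), RpL32 (667.4), RpL28 with the initiation factor eIF1 (427.6), RpS20 (322.3), RpS5a (231.2) and RpL36 (164.5). The Mediator subunits were MED15 (528.7), MED17 (298.0), MED25 (193.4) and MED7 (173.2), and the spliceosome genes Sf3b6 (369.4), snRNP-U1-C (274.2), SF2 (267.7), U4-U6-60K (225.6) and Prp31 (197.0), the last of which shares its gap with the mismatch repair gene Msh6.

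Other lists had few genes with a member. Vesicle traffic had 5 of 48 genes at divergent gaps (10.4%), led by Vps33B with Fur1 (721.7), Sec61alpha, the channel of the endoplasmic reticulum translocon, with Daxx (326.2), and Vps15 with CG8420 (284.6). Oxidative phosphorylation had 3 of 30, at ND-ASHI with Fum1 (659.0), blw, a subunit of ATP synthase, with CG42260 (275.1), and ND-SGDH with RhoGAP68F (194.6). DNA repair had 3 of 23 (13.0%), with tefu, the fly ATM kinase, at 261.4, Msh6 at 197.0 and Rad51D with CG8046 at 178.6. The member at tefu is also that of the chaperone Hsc70-4, with which it forms a pair. Chaperones had members at Hsp83 with CG14965 (853.8) and at DnaJ-H with Sirt1 (480.6) besides, and 2 of 23 chaperones at the gaps counted had one (8.70%). Replication and the cell cycle had 2 of 29 (6.90%), RnrS, a subunit of ribonucleotide reductase, with CG34231 (309.0) and Cdk1.

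Aminoacyl-tRNA synthetases had 2 of 13 genes at the gaps counted, and members lay at IleRS with Hem (335.8), AspRS with Nmda1 (247.2) and GlyRS with Plp (171.0). Among translation factors, eIF5B with CG46463 had a signal of 229.3, below those at eIF4EHP and eIF1. Mitochondrial import had 2 of 5 genes, Tom7 among them. The Polycomb and Trithorax groups had brm alone of 17, the insulator proteins Cp190 alone of 8, and the RNA polymerases and general factors Polr3E, with CG10584 (417.7), alone of 24. RNA modification had Non2 with Mrtf (203.7) of 21, and Cul5 with Bicra (295.6) was the single ubiquitin conjugation gene. None of the 16 proteasome, 11 nuclear pore and 12 cuticle genes at divergent gaps had a member, with upper limits of 20.6%, 28.5% and 26.5%, so at 10.3% none of these zeros stands apart. No Hox or segmentation gene is at such a gap, so nothing can be said of that list here, and of 19 chemoreceptors Gr32a alone had a member. Genes known only by a CG number made up 29.0% (24.3 to 34.0) of the 355 genes whose divergent gap held a member, against 34.2% (32.6 to 35.8) of the 3445 genes of all such gaps, with intervals that overlap.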

How the data were processed

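Each of the 3 replicates has a peak list in narrowPeak format, and pooled and optimal lists cover the series. Per the labels and deposited notes, coordinates are dm6, lists were called on each replicate or the pool against a control alignment, the same for all and not analysed here, and the optimal set was chosen by reproducibility between replicates. Aligner, peak caller, versions and threshold were not given in the sources used here. Peaks were ranked within a list by the authors' signal, and the deposited −log10 q-value was used only to order equal signals. How signals were scaled in each list is unknown. Signals were compared within a list, but the permutation test of the signal difference averages such differences over the lists.

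TSSs are those of protein-coding transcripts in Ensembl release 115, and sequence is from RefSeq Release 6, the same assembly. Summits are the peak start plus the deposited offset, which lay outside the peak in 2 optimal peaks and in no member. Windows of 201 bp were searched for motifs on both strands. Values were computed in Python 3.11.15 with numpy 2.4.6, pandas 2.3.3 and scipy 1.17.1, and the placement and motif search were tested on simulated data. Replicates are separate biological replicates per the labels. With 1 group, comparisons are descriptions with exact binomial intervals, or exact sign permutation tests over 3 replicates (two-sided), and no test between groups or of gene lists was made. Alternatives were the stronger 1618 optimal peaks, leaving out each replicate, other support rules, 1 TSS per gene, midpoints, gaps up to 600 bp and narrower motif windows.

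The members, lists, motifs and tests were chosen with earlier results of these data known, and a few symbols were dropped from the lists after matching because their known role differs. The text names the 20 strongest members, the strongest 3 of each list, pairs with 2 members and members at the limits of the rule. It also names members backed by no replicate and, among members found in all 3 replicates, the 5 whose ranks differ most. Of all these, 2 members are not reported by name here. Genes of the lists beyond these were named after their values were seen.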

Additional observations from a re-analysis of the deposited data

How the results depend on the processing

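Of 90 alternative values of 12 results, 56 stayed within the interval of the value reported or within 1.5 times the count, and 6 values of the signal difference, which has no interval, kept its sign only. Leaving out a replicate, with only optimal peaks kept that both other replicates backed, gave 121 to 163 members in place of 197, 5.39% to 6.99% of peaks, a median signal of 300.1 to 370.7, 6.23% to 8.40% of gaps and 35 to 51 list genes in place of 55. The share of members backed by both remaining replicates was 61.4% to 82.7%, the highest without replicate 3. The signal difference between members and other upstream peaks, -7.99 averaged over replicates, was -7.70 to 1.43 with a replicate left out, and turned positive (1.43) without replicate 1. The exact permutation p could not fall below 0.25 in any case, and the cause was not tested.

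Among the stronger 1618 optimal peaks there were 116 members (7.17% of them), with a median signal of 388.8, in 6.06% of gaps and with 34 list genes, and 83.6% were backed by all replicates. These are fewer or stronger peaks by construction. Over all members of the full optimal set, accepting any rank in the replicate lists raised the share found in all replicates from 57.9% to 91.4%. With only the most upstream TSS of each gene, 4.91% of peaks were members, and with gaps of at most 600 bp 4.51%, at a median place of 41.1% of the gap. With 50 bp windows the DRE share was 1.52%, that of Motif 7 1.02% and that of the BEAF-32 half-site 14.2%. The half-site share was 25.9% among the stronger 1618 peaks and 25.2% to 32.5% with a replicate left out. No paired analysis was possible because the replicate numbers pair no groups, and the differences within a replicate set peaks of 1 list against each other. Signal in lists without read counts gives no depth, 3 replicates cannot reach a p under 0.25, and motif shares under about 2% rest on 3 or fewer members.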
